A study of Mus musculus with 61 samples.

Results

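The enhancers described here are the autosomal regions with the highest Sono-seq level among 14103 distinct autosomal enhancers. They were chosen by the measured values: the level of an enhancer was the mean of its value in CAF-1 knockdown cells and its value in Renilla hairpin cells, the highest twentieth (705 enhancers) was kept, and 6 enhancers with a level above 0.5 were set aside. This left 699 enhancers, set against 13398 other autosomal enhancers. Every statement on the level itself is therefore a description of the choice.

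The cells were reprogramming intermediates collected at day 3 from mouse embryonic fibroblasts of E13.5 embryos, strain Black6-129X1/SvJ, genotype Col1a1::tetOP-OKSM with R26-M2rtTA. In these cells doxycycline (2 µg/ml) switches on Oct4, Klf4, Sox2 and Myc from a cassette at Col1a1, through a transactivator expressed from the Rosa26 locus, and all groups carried the cassette and received the drug, with ascorbate in serum and LIF medium. Sono-seq groups were CAF-1 knockdown and a Renilla hairpin, which has no mouse target, with 3 libraries each. Sox2 ChIP-seq had 1 immunoprecipitate and 1 input for each of the hairpins Chaf1a.166, Chaf1a.2122 and Renilla, and the other 49 of the 61 samples were not analysed here. The Sono-seq table gives 1 value for each condition and region, with no value for a single library and no stated unit, and its labels do not say which Chaf1a hairpin was used. The spread between replicates is thus unknown, no difference between the conditions was tested, and the depth is unknown.

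CAF-1 is the histone chaperone that places new histones H3 and H4 on freshly replicated DNA, and Chaf1a codes for its largest subunit. Enhancers are regulatory regions away from gene starts, where bound transcription factors displace or loosen nucleosomes. Sono-seq sequences cross-linked chromatin after sonication: open regions break more readily and give more fragments, so the method reads accessibility without an antibody. Sox2 binds enhancers of pluripotency genes in embryonic stem cells and is one of the factors expressed from the cassette. The enhancer positions, and the genes assigned to them, come from a published map of mouse embryonic stem cells, per the file header, not from fibroblasts. Coordinates are in mm9, per the submitters' processing notes, and each enhancer is a single position given in steps of 50 bp.

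The genes with the most of these enhancers, not counting a cluster on chromosome 17 whose enhancers are assigned to several genes at once, were Myh9 and Irf2bp2 with 7 each, followed by Actn1, Trappc9 and a shared cluster of Septin9 and 2810008D09Rik with 6 each. The enhancers' own sequences were not used here, because the positions are in mm9 and no genome of that build was used. To show the starts that these enhancer clusters are assigned to, the 250 bases before the RefSeq start of Myh9, Actn1 and Irf2bp2 are given 5′ to 3′ on the gene's strand, in build GRCm38.p6. Capitals mark CCAAT, the core of the CCAAT box, and GGGCGG, the core of a GC box, on either strand (ATTGG and CCGCCC are their reverse complements). CCAAT and GGGCGG matches did not overlap each other in these promoters, and in Actn1 2 GC box cores stand end to end.
Myh9, chr15:77842176-77842425, minus strand: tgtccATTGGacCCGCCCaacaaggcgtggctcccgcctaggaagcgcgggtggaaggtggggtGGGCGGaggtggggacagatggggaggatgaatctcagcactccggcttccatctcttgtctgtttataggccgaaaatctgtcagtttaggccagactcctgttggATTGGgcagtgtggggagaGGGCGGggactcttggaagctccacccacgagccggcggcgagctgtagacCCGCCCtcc
Actn1, chr12:80260364-80260613, minus strand: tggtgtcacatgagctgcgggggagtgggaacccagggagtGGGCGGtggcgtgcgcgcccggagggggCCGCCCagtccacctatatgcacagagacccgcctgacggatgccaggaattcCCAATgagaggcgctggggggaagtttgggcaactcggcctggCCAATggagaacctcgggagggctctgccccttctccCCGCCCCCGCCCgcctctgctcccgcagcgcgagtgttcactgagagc
Irf2bp2, chr8:126593987-126594236, minus strand: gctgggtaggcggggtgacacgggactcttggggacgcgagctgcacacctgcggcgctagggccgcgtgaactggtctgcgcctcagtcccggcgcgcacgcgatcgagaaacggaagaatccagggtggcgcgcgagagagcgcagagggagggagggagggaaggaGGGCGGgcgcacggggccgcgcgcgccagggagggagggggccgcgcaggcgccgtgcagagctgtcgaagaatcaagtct
Myh9 held 2 CCAAT and 4 GGGCGG matches, Actn1 held 2 and 4, and Irf2bp2 held 0 and 1. The AP-1 motif TGANTCA, also searched on both strands, had 0 matches in each of the 3. Of the 724 genes with at least 1 of the enhancers, 595 (82.2%) matched a RefSeq promoter by symbol, older symbol or transcript. Among their 778 promoters 69.2% held GGGCGG, 32.8% held CCAAT and 4.88% held TGANTCA, against 32.7%, 33.8% and 6.75% of all 32851 promoters of the table. The median GC content of these 250 bases was 62.4% in the promoters of these genes and 52.4% in all promoters. A match of letters is a description and not a binding site, and genes that are not in the enhancer table are part of the set of all promoters.

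The highest enhancers had a median level of 0.192 (range 0.182 to 0.284), against 0.138 in all other autosomal enhancers. Their values had a median of 0.199 in CAF-1 knockdown cells and 0.189 in Renilla cells, and the others had medians of 0.138 in CAF-1 knockdown cells and 0.136 in Renilla cells. The choice followed very small steps at its border. The last enhancer inside was one of Mapre2 (level 0.182454, 0.203 in CAF-1 knockdown and 0.162 in Renilla cells), and the first outside was one assigned to Notch1, Egfl7 and Agpat2 (level 0.182451, 0.191 in CAF-1 knockdown and 0.174 in Renilla cells). Just inside lay enhancers of Tcfap2c, Atp6v1b2, Pacsin2 and Glod4, and just outside enhancers of Ptpn14, Rpl12, Ubac1 and Mrpl33, all with a level of 0.182 or 0.183.

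**Figure D1:**
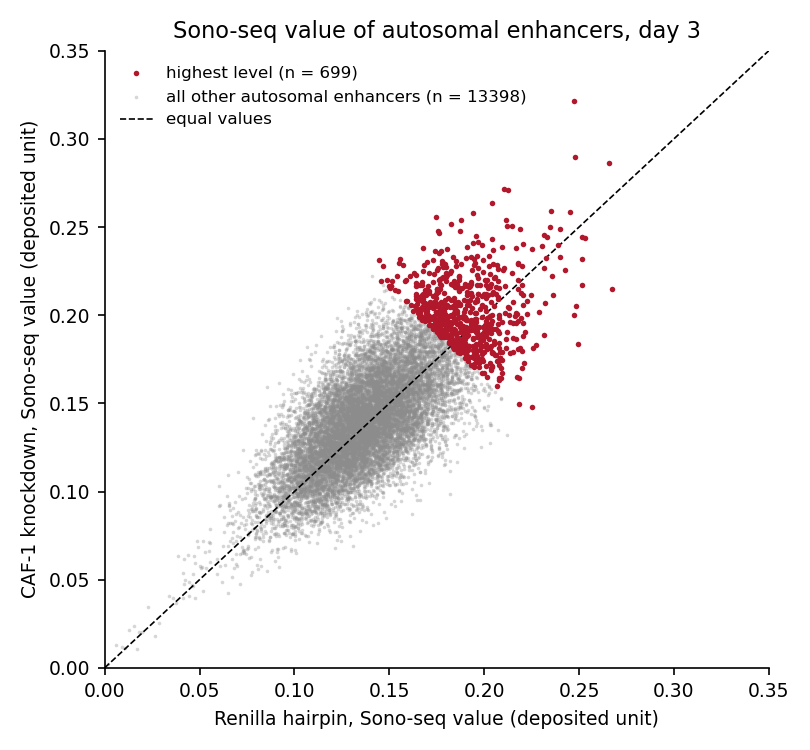
Sono-seq value of each autosomal enhancer at or below a level of 0.5 in CAF-1 knockdown cells (vertical axis) against Renilla cells (horizontal axis), in the unit of the deposited table. The 699 highest enhancers (red) are cut from the 13398 others (grey) along a line of constant mean, and 457 of them lie above the dashed line of equal values.

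The enhancer of highest level was assigned to Brd7, a subunit of the PBAF chromatin remodelling complex, and Nkd1, an inhibitor of Wnt signalling, and lay at chr8:91024200. It had a value of 0.321 in CAF-1 knockdown cells and 0.247 in Renilla cells. Next came an enhancer of Bcar3, an adaptor of Cas and Src signalling, at chr3:122342600, with 0.286 in CAF-1 knockdown cells and 0.266 in Renilla cells. The enhancer of Sufu, the suppressor of Hedgehog signalling, at chr19:46517900 had 0.290 in CAF-1 knockdown cells and 0.248 in Renilla cells. All 3 were higher in the knockdown. Sulf2, an extracellular heparan sulfatase, followed at chr2:166033600, with 0.259 in CAF-1 knockdown cells and 0.245 in Renilla cells. Myh9, the heavy chain of non-muscle myosin IIA, had its highest enhancer at chr15:77626400, with 0.244 in CAF-1 knockdown cells and 0.253 in Renilla cells. The enhancer at chr17:27522700, assigned to Lemd2, Hmga1, AI413582 and Nudt3, had 0.244 in CAF-1 knockdown cells and 0.252 in Renilla cells. Lemd2 codes for a protein of the inner nuclear membrane and Hmga1 for an architectural chromatin protein. These last 2 were the only ones of the 10 highest with the lower value in the knockdown. The remaining 4 of the 10 highest belonged to Iscu and Coro1c with 0.259 in CAF-1 knockdown and 0.235 in Renilla cells, Actn4 with 0.249 in CAF-1 knockdown and 0.240 in Renilla cells, a group with the glutathione transferase gene Gstp1, with 0.250 in CAF-1 knockdown and 0.235 in Renilla cells, and Mapkapk3 with Cish, with 0.271 in CAF-1 knockdown and 0.213 in Renilla cells. Coro1c and Actn4 code for actin-binding proteins. Of these 10 enhancers, the one of Bcar3 lay 219903 bp from its assigned start, although another listed start was 20015 bp away, and the one of Mapkapk3 and Cish, the nearest, lay 9631 bp from its start.

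The ratio of the conditions was not used in the choice as such, but both of its values were. Of the 699 enhancers, 457 (65.4%) had a higher value in CAF-1 knockdown than in Renilla cells, against 54.9% of the others and 55.4% of all autosomal enhancers. Their median log2 CAF-1/Renilla ratio was 0.088 (95% order statistic interval 0.071 to 0.100), or 1.06-fold, against 0.026 (0.021 to 0.030), or 1.02-fold, in the others. A value at least 1.2-fold higher in CAF-1 knockdown cells was found at 132 (18.9%) of them, against 15.3% of the others and 15.5% of all. A value at least 1.2-fold lower was found at 27 (3.86%) of them, against 10.9% of the others and 10.5% of all. The highest enhancers and the others thus stood further apart in the share of lower values than in the share of higher ones. The log2 ratios of the highest enhancers had an SD over enhancers of 0.198, against 0.233 in the others, and the next lower of 20 bins of level had 0.196. Intervals here cover counting error only, and neighbouring enhancers are not independent.

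The direction of this ratio depended on which value was used to choose. Such a shift is built into the choice: high CAF-1 values favour high ratios, and high Renilla values favour low ones. Chosen on the CAF-1 value alone, 699 enhancers had a median log2 ratio of 0.23 and 634 were higher in CAF-1 knockdown. Chosen on the Renilla value alone, 699 enhancers had a median of -0.098 and 208 were higher in CAF-1 knockdown. The 256 enhancers in both of these choices had a median of 0.077, with 191 higher in CAF-1 knockdown cells. Without any choice of enhancers, the 95th percentile of the autosomal enhancer values was 0.191 in CAF-1 knockdown and 0.182 in Renilla cells, a log2 ratio of 0.065. The 5th percentile was 0.0950 in CAF-1 knockdown and 0.0962 in Renilla cells, a log2 ratio of -0.018. The values of CAF-1 knockdown cells were thus spread more widely at both of these percentiles. At promoters of the same table the 95th percentile was 0.193 in CAF-1 knockdown and 0.189 in Renilla cells, a log2 ratio of 0.028.

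The ratio tended to be higher at higher levels, unevenly from bin to bin. When the autosomal enhancers at or below 0.5 were put in 20 bins of level, the median log2 ratio was -0.019 in the lowest bin, 0.036 in the 10th, 0.045 in the 11th, 0.022 in the 12th, 0.031 in the 15th, 0.070 in the 16th, 0.039 in the 17th, 0.069 in the 19th and 0.088 in the highest. The quartiles of the highest bin were -0.054 and 0.21, and those of the lowest -0.21 and 0.18, so the lower quartile moved more along the bins than the upper. The median log2 ratio of the highest enhancers was above that of the others on 17 of 19 autosomes. Level and ratio are made from the same 2 values, so the bins and this count describe the choice and are not separate support. On chromosome 9 it was 0.19 against 0.023, and on chromosome 16 it was -0.054 against 0.021, with 29 and 18 of the enhancers. Chromosome 6 was the other exception, with -0.012 against 0.021.

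**Figure D2:**
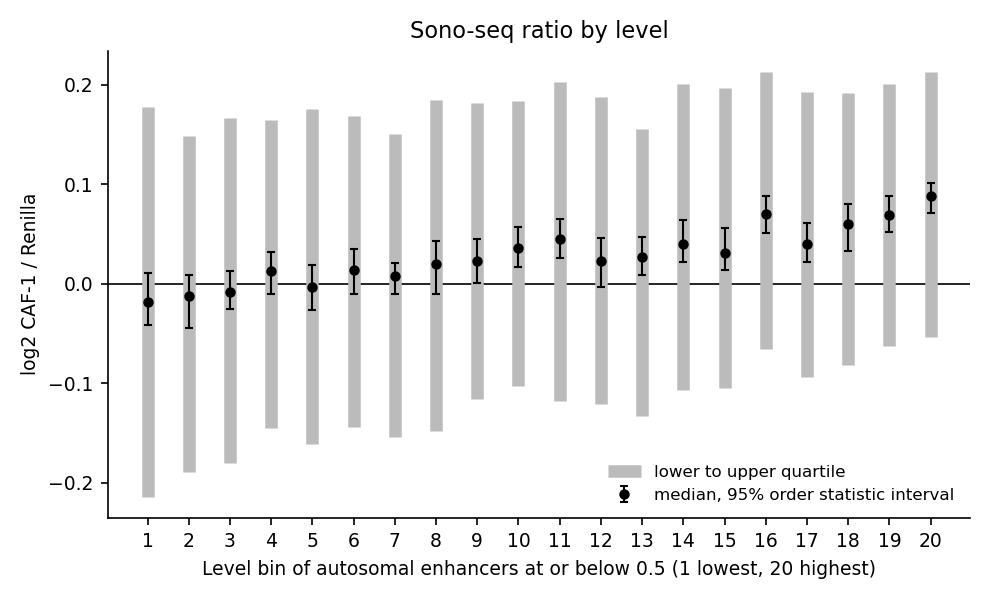
Median log2 CAF-1/Renilla ratio (points, with 95% order statistic intervals) and its quartiles (grey bars) in 20 bins of autosomal enhancers at or below 0.5, ordered by level on the horizontal axis. The median goes from -0.019 in the lowest bin to 0.088 in the highest, while the quartile range spans 0 in every bin.

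Single enhancers differed far more than the medians. The highest ratio belonged to the enhancer at chr7:20496700 assigned to Bcl3, an atypical member of the I-kappa-B family, Pvr, a cell adhesion receptor, and 2210010C17Rik. It had 0.231 in CAF-1 knockdown cells and 0.145 in Renilla cells, a log2 ratio of 0.68. An enhancer of Nhsl1 followed with 0.228 in CAF-1 knockdown and 0.147 in Renilla cells (log2 ratio 0.64), and one of Adam19, a membrane metalloprotease, with 0.220 and 0.146 (0.59). Nisch and Capn7 shared an enhancer with 0.232 in CAF-1 knockdown and 0.156 in Renilla cells (0.57). Kdm1a, which codes for a histone H3 lysine demethylase, had one at chr4:136366400 with 0.229 in CAF-1 knockdown and 0.155 in Renilla cells (0.57), and the other 2 of the highest enhancers of this gene, at chr4:136275500 and chr4:136271300, had log2 ratios of 0.13 and 0.029. At the other end, the enhancer at chr17:27552200 of the Lemd2 and Hmga1 group had 0.148 in CAF-1 knockdown and 0.225 in Renilla cells, a log2 ratio of -0.60. Snx9, an endocytic sorting nexin, had one with 0.150 in CAF-1 knockdown and 0.218 in Renilla cells (-0.55). The other 3 lowest ratios were at Tpcn1 and Ddx54 (-0.44), Actn1 (-0.41) and a keratin and plakoglobin group with Krt17 and Jup (-0.40). At 9 of these 10 enhancers the value in 1 of the conditions lay below the lowest level chosen (the exception was that of Tpcn1 and Ddx54, with 0.184 in CAF-1 knockdown and 0.249 in Renilla cells), and with 1 value for each condition its error is unknown.

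The highest enhancers stood in groups along the chromosomes, which the choice did not use. Another of them lay within 50 kb of 307 (43.9%), while 17.2% of the others had one of them within 50 kb. Of the enhancers within 50 kb of a highest enhancer, 15.5% (620 of 4009 ordered pairs) were themselves among the highest, against 5.55% (3389 of 61049) of those within 50 kb of another enhancer. This share was highest close by and lower, though not evenly so, at greater distances. It was 26.8% within 5 kb, 13.4% at 20 to 50 kb, 8.81% at 50 to 100 kb, 9.83% at 100 to 200 kb and 7.57% at 0.5 to 1 Mb, while around the other enhancers it was 5.71%, 5.50%, 5.67%, 5.75% and 6.40% over the same distances. Neighbours that were not among the highest also had higher levels when close: a median of 0.149 in others with a highest enhancer within 50 kb, against 0.135 in those without. The width of the window behind each value was not given in the sources used here.

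**Figure D3:**
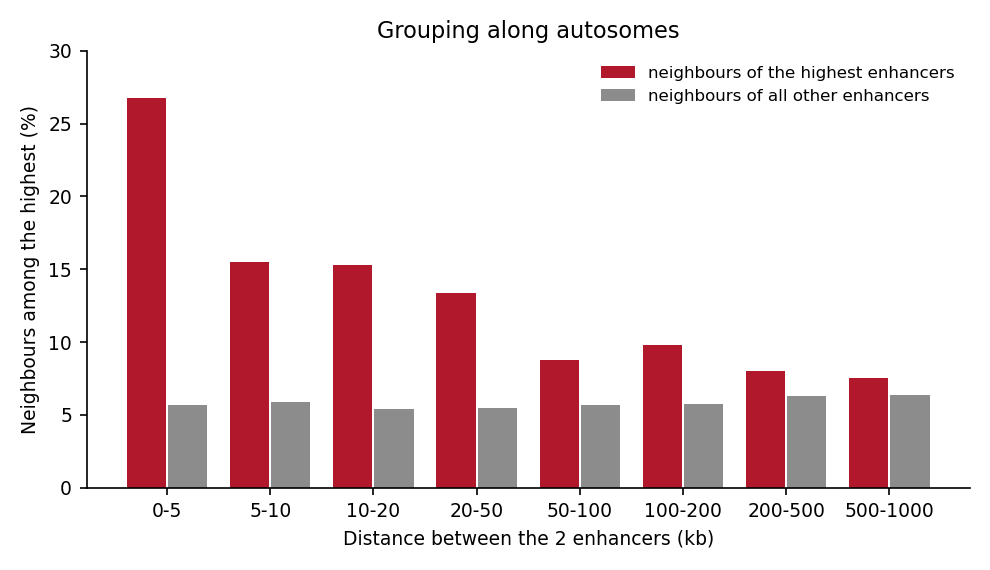
Share of neighbouring enhancers that were among the highest (vertical axis, %), by distance between the pair (horizontal axis, kb), for neighbours of the highest enhancers (red) and of all other autosomal enhancers (grey). The red bars are 26.8% within 5 kb and 7.57% at 500 to 1000 kb, and the grey bars stay between 5.41% and 6.40%.

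Joined where neighbours lay within 50 kb, the 699 enhancers formed 502 runs. Of these, 392 held 1 enhancer, 110 held 2 or more and 11 held 5 or more. The longest run was at Myh9, with 7 enhancers between 77593100 and 77642800 on chromosome 15 and no enhancer of lower level between them. Their values in CAF-1 knockdown cells were 0.203, 0.167, 0.244, 0.181, 0.193, 0.186 and 0.204 in order of position. In Renilla cells the same 7 had 0.185, 0.200, 0.253, 0.226, 0.194, 0.194 and 0.173. The first and the last were higher in the knockdown, the middle 5 in Renilla cells. Actn1, which codes for an alpha-actinin that cross-links actin filaments, had a run of 6 over 55000 bp on chromosome 12, of which 3 were higher in the knockdown. Its values in CAF-1 knockdown cells were 0.183, 0.212, 0.215, 0.179, 0.217 and 0.164, against 0.187, 0.193, 0.175, 0.200, 0.192 and 0.218 in Renilla cells. High and low ratios stood side by side there, with log2 ratios from -0.41 to 0.29 in 1 run. Irf2bp2, a corepressor partner of Irf2, had a run of 6 over 115900 bp on chromosome 8, with 8 enhancers of lower level between them, and 5 of the 6 were higher in the knockdown. Runs of 6 were also found at Trappc9, a vesicle trafficking factor, at Rpl12 with Snora65 and Lrsam1, and at Nnat, Blcap and Manbal, which include the imprinted gene Nnat. Among the 11 runs of 5 or more were those at Hspg2, which codes for the basement membrane protein perlecan, and at Baiap2 and Azi1. At Hspg2 the log2 ratios ran from -0.093 to 0.49, with a median of 0.055. At Baiap2 and Azi1 they ran from -0.12 to 0.039, with a median of -0.042, so the 2 ranges overlapped.

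Ratios were as spread within runs as over all enhancers in runs. The SD of the log2 ratio within runs was 0.20, as large as the 0.20 over all 307 enhancers in runs of 2 or more. All members were higher in the knockdown in 41 of these 110 runs, and all were lower in 9. Of the 110, 61 held only 2 enhancers, and 65.4% of all 699 enhancers were higher in the knockdown. The number of runs with a single direction to be found without a shared ratio was not computed. With 1 value for each condition the error of a ratio is unknown, so sharing of a ratio within runs was not tested. One of the 41 was the run of 3 assigned to Klhdc4, Slc7a5, which codes for an amino acid transporter, and BC048644, with log2 ratios from 0.24 to 0.52.

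The 699 enhancers were assigned to 724 of the 5021 genes with an autosomal enhancer (14.4%). Of these genes 529 had 1, 120 had 2, 43 had 3 and 32 had 4 or more. Hmga1 and Nudt3 had 8 each and AI413582 and Lemd2 had 7 each, but these are largely the same enhancers, since a region could be assigned to several genes. Hspg2, Nnat, Ptpn14 and Rpl12 had 5 each. Genes with a highest enhancer had a median of 6 enhancers, against 2 in the other genes. This direction follows from how the genes were divided, since a gene with more enhancers has more that can be among the highest. The other enhancers of these genes had a median level of 0.147 (n = 3415), against 0.134 at genes with none of the highest (n = 9983).

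**Figure D4:**
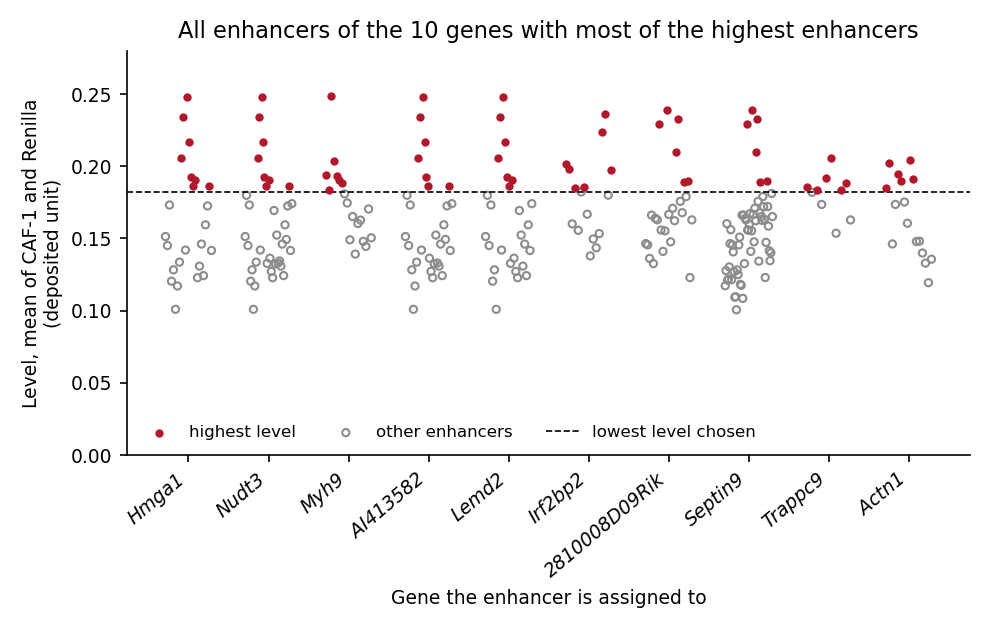
Level of every enhancer assigned to the 10 genes with most of the highest enhancers (vertical axis, mean of CAF-1 and Renilla in the deposited unit), in order of position within each gene. Filled red points are the highest enhancers, open points the gene's others, and the dashed line is the lowest level chosen, so the division at this line follows from the choice. Hmga1, Nudt3, AI413582 and Lemd2 share most of their points, as do 2810008D09Rik and Septin9.

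All enhancers of Naa35, 3 of 3, were among the highest, as were both enhancers of Mtch1, Gnai2, Aup1, Htra2, Psenen and U2af1l4. Aup1 and Htra2 share the same 2 enhancers, and so do Psenen and U2af1l4. The distance to genes was much like that of the others. The nearest listed start site lay a median of 24528 bp away, against 24058.5 bp in the others, with 1 of the 699 within 2 kb of a start. Assignment to 2 or more genes was found at 31.5% of them and 29.6% of the others. The promoters of the genes with a highest enhancer had a median level of 0.153 (n = 791), against 0.141 at promoters of the other genes (n = 4583). Their ratio was not shifted in the same way: the median log2 CAF-1/Renilla ratio was -0.0092 at promoters of these genes and -0.0082 at promoters of the others, with 48.9% of the promoters of these genes higher in the knockdown and 48.3% of the others. At Myh9 the promoter had 0.136 in CAF-1 knockdown and 0.143 in Renilla cells, and at Actn1 it had 0.106 in CAF-1 knockdown and 0.144 in Renilla cells, a log2 ratio of -0.43. At Irf2bp2 it had 0.168 in CAF-1 knockdown and 0.175 in Renilla cells. All 3 promoters had lower levels than the highest enhancers assigned to them. This order follows largely from the choice, since the enhancers were chosen for a high level and the promoters were not.

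Genes of pluripotency were seldom among those assigned. Of 29 pluripotency genes in the table, 2 had a highest enhancer, and of their 182 enhancers 2 (1.10%) were among the highest, against 4.96% of all autosomal enhancers. The first was an enhancer of Pou5f1, which codes for Oct4, at chr17:35754150, with 0.184 in CAF-1 knockdown and 0.182 in Renilla cells. The other was one of Trim28, a corepressor of retroelements, and is also assigned to Zbtb45, Chmp2a and Ube2m. It had 0.170 in CAF-1 knockdown and 0.204 in Renilla cells. The median level over the 182 pluripotency enhancers was 0.126, against 0.139 over all autosomal enhancers. None of the 68 enhancers of 8 epithelial genes and none of the 17 of 6 genes of CAF-1 and other histone chaperones was among the highest. Counts of 0 of 68 and 0 of 17 leave shares of up to 5.28% and 19.5% within the exact binomial interval. Only 6 genes of the fibroblast list had an enhancer in the table, and its other genes could not be described. Of these 6 genes, 3 had a highest enhancer, beside 14.4% of all autosomal genes. Junb, an AP-1 subunit, had one with 0.187 in CAF-1 knockdown and 0.215 in Renilla cells. Tead3 and Tead1 code for DNA-binding partners of YAP in the Hippo pathway. Tead3 had one, also assigned to the ribosomal protein gene Rpl10a, with 0.218 in CAF-1 knockdown and 0.183 in Renilla cells. Tead1 had 2, with 0.195 and 0.187 in CAF-1 knockdown and 0.194 and 0.189 in Renilla cells. So 4 of 50 enhancers of the fibroblast list (8.00%, exact interval 2.22 to 19.2) were among the highest, and the interval holds the 4.96% of all. Junb also counts among immediate early and stress genes, and Tead1 and Tead3 among Hippo genes, in lists described below.

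The lists of growth and housekeeping genes were close to the overall share. Some enhancers are also assigned to genes outside a list, and an enhancer can count in several lists, as that of Rpl10a and Tead3 did. Ribosomal protein genes had 10 of 187 enhancers (5.35%) among the highest, of which 5 belonged to Rpl12, translation factor genes had 7 of 123 (5.69%), zinc finger genes had 13 of 278 (4.68%), histone genes had 2 of 44 (4.55%) and splicing genes had 2 of 35 (5.71%). Immediate early and stress genes had 2 of 60 (3.33%), at Junb and Gadd45b, both with lower values in the knockdown. Notch1 and Notch2, receptors of the Notch pathway, had 1 each (2 of 38 enhancers of that list, 5.26%), with log2 ratios of 0.33 and 0.025. That of Notch1 is also assigned to Egfl7 and Agpat2, and that of Notch2 to Sec22b. Of 9 cell cycle genes 4 had 1 each, namely Mdm2, Myc, Mcm2 and Mcm5, which made 4 of 61 enhancers (6.56%). For Myc, itself a factor of the cassette, the enhancer at chr15:61956500 had 0.186 in CAF-1 knockdown and 0.184 in Renilla cells.

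Genes of the actin cytoskeleton, adhesion and matrix appeared repeatedly, and a list of them was drawn up after the assigned genes were seen, so its share is a description of what was noticed. On it, 14 of 36 genes (38.9%) had a highest enhancer, beside 14.4% of all autosomal genes, and 37 of 259 enhancers (14.3%) were among the highest, beside 4.96% of all autosomal enhancers. Myh9 had 7 of the 37, Actn1 6, Hspg2 5 and Capzb 4, each within a single run, so a few genes weigh heavily in this share. The 36 genes had 259 enhancers and all 5021 autosomal genes had 14103. The listed genes thus had more enhancers each, and their share of genes is not like for like. Of the 37, 21 were higher in the knockdown, beside 457 (65.4%) of all 699. Plec, which codes for the cytolinker plectin, had 3 within 7600 bp on chromosome 15, with 0.254, 0.225 and 0.215 in CAF-1 knockdown and 0.188, 0.210 and 0.267 in Renilla cells. Actn4 had 3, with 0.249, 0.251 and 0.210 in CAF-1 knockdown and 0.240, 0.212 and 0.207 in Renilla cells. All 3 of Actn4 were higher in the knockdown, and of the 3 of Plec the last was lower. Zyx, which codes for the focal adhesion protein zyxin, had 1 with 0.264 in CAF-1 knockdown and 0.204 in Renilla cells. Capzb, a capping protein of actin filaments, had 4, of which 3 were higher in the knockdown. Single ones belonged to the integrin gene Itga3, to Vcl and Tln1, which code for vinculin and talin, and to Tpm1, a tropomyosin. Those of Itga3, Vcl and Tln1 are also assigned to other genes. A second list drawn up in the same way, of TGF-beta, Smad and Hippo genes, had 17 of 157 enhancers (10.8%) among the highest, beside 4.96% of all, at 9 of 20 genes, beside 14.4% of all. Its 20 genes also had more enhancers each than autosomal genes in general. Smad3, a signal transducer of TGF-beta, had 4, with log2 ratios of -0.26, 0.21, 0.32 and 0.28, and the inhibitory Smad7 and Smad6 had 1 each, with 0.32 and 0.060. Ptpn14, a phosphatase that restrains YAP, had 5 with log2 ratios from -0.26 to 0.25. No Sono-seq value of fibroblasts before doxycycline was used here, so whether these levels precede the cassette's expression was not tested.

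Sox2 positions were measured apart from the Sono-seq values and did not enter the choice. The lists held 15888 positions for Chaf1a.166, 19319 for Chaf1a.2122 and 17681 for Renilla. Within 500 bp, 27 of the 699 enhancers had a position of the Chaf1a.166 list (3.86%, exact interval 2.56 to 5.57), against 3.31% of the others and 3.34% of all autosomal enhancers. For Chaf1a.2122 there were 31 (4.43%, 3.03 to 6.24), against 3.63% of the others and 3.67% of all. For Renilla there were 28 (4.01%, 2.68 to 5.74), against 3.16% of the others and 3.21% of all. These shares are near the background in all 3 lists, and the comparison depended on which value was used to choose. Chosen on the Renilla value alone, 699 enhancers had a position at 4.58% (Chaf1a.166), 6.01% (Chaf1a.2122) and 5.01% (Renilla), against 3.27%, 3.55% and 3.11% of the others. Chosen on the CAF-1 value alone, they had one at 3.43%, 3.58% and 3.15%, against 3.33%, 3.67% and 3.21% of the others in the same lists, so in the Chaf1a.2122 and Renilla lists the share was then below that of the others. Any of the lists had a position at 40 (5.72%), against 4.75% of the others, and all 3 had one at 18 (2.58%), against 2.19%.

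The gap was larger for positions 500 to 5000 bp away, and small beyond. A nearest position between 500 and 1000 bp away was found for 4.29% of the highest enhancers and 1.93% of the others in the Chaf1a.166 list, for 5.29% and 2.27% in the Chaf1a.2122 list, and for 4.01% and 2.16% in the Renilla list. Within 5000 bp a Chaf1a.166 position lay near 23.9% of the highest enhancers and 16.1% of the others, a Chaf1a.2122 position near 26.8% and 18.2%, and a Renilla position near 23.9% and 16.3%. Counted within a distance, the exact intervals of the 2 sets did not overlap from 1000 bp on in any list. For a nearest position 2000 to 5000 bp away they overlapped in the Chaf1a.166 list, with 9.87% (7.76 to 12.3) and 7.84% (7.39 to 8.31). For a nearest position 5000 to 10000 bp away the shares were 11.4% of the highest enhancers and 11.0% of the others in the Chaf1a.166 list and 11.3% of both in the Renilla list, and the counts were 90 of 699 and 1610 of 13398 in the Chaf1a.2122 list. The gap was present with both Chaf1a hairpins and with Renilla, and a difference in its size between hairpins was not tested. Enhancers near each other can share 1 Sox2 position, so the intervals are too narrow. The highest enhancers had a median of 5 enhancers within 50 kb and the others 4, and whether this bears on the gap was not tested.

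**Figure D5:**
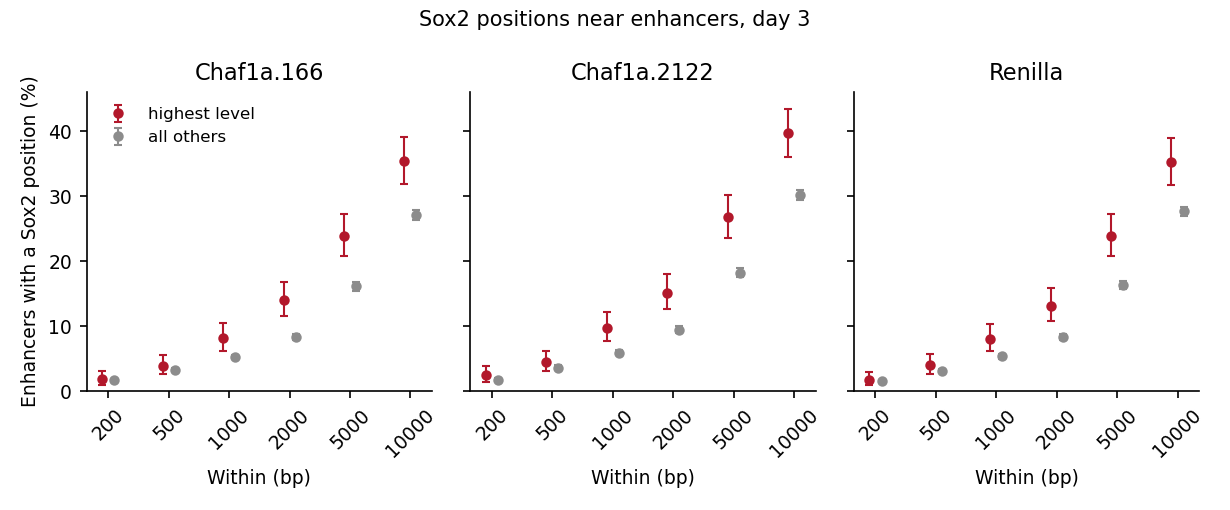
Share of enhancers with a Sox2 position within the distance on the horizontal axis (bp), for the 699 highest (red) and the 13398 other autosomal enhancers (grey), in the lists of Chaf1a.166, Chaf1a.2122 and Renilla. Bars are exact 95% binomial intervals of counting error. At 500 bp the shares are 3.86%, 4.43% and 4.01% in red and 3.31%, 3.63% and 3.16% in grey, and at 5000 bp red lies above grey in all 3 panels.

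None of the Sox2 positions at the highest enhancers was among the best 1000 positions of its list by score, while the others had 26 in the Chaf1a.166 list, 22 in the Chaf1a.2122 list and 30 in the Renilla list. Those counts stand against 27, 31 and 28 of the highest enhancers, and 443, 486 and 424 of the others, with a position in these lists, so few could have been there in any case. The authors' enrichment over input had a median of 6.62 at the highest enhancers and 7.99 at the others in the Chaf1a.166 list, 7.58 and 7.17 in the Chaf1a.2122 list, and 6.51 and 8.78 in the Renilla list. The share near Sox2 was also not greatest in the highest bin of level: for Renilla it was 4.82% in the 18th of 20 bins, 4.68% in the 19th and 3.98% in the highest, and 2.27% in the lowest.

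Among the 18 enhancers with a position in all 3 lists, the one assigned to Trrap and Smurf1 at chr5:145659500 had the best ranked Renilla position, 1663rd in its list and 155 bp away. Trrap codes for a scaffold of histone acetyltransferase complexes, and Smurf1 for a ubiquitin ligase of Smad proteins. The enhancer had 0.192 in CAF-1 knockdown and 0.177 in Renilla cells. The next was at Glod4 and Rnmtl1, with positions 37 bp (Chaf1a.166), 66 bp (Chaf1a.2122) and 53 bp (Renilla) away, and values of 0.187 in CAF-1 knockdown and 0.183 in Renilla cells. Those of Tns3, a tensin of focal adhesions, and Capzb followed. Tns3 had 0.228 in CAF-1 knockdown and 0.203 in Renilla cells, and Capzb had 0.187 in CAF-1 knockdown and 0.211 in Renilla cells. The other 6 of the 10 best ranked were at Trim56, Il17ra, Afap1, Trappc9, a group with Alkbh2, and Ppp1r2. Of these 18, 10 were higher in the knockdown, with a median log2 ratio of 0.067.

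Positions found with both Chaf1a hairpins and not with Renilla lay at 4 of the 699 (0.572%), against 0.411% of the others. These enhancers belonged to Ptgfrn, a prostaglandin receptor regulator, with the nearest Renilla position 14447 bp away, to Tcfap2c, an AP-2 transcription factor, with the nearest Renilla position 66515 bp away, and to Plekho2 and Fam49b. Tcfap2c had 0.197 in CAF-1 knockdown and 0.167 in Renilla cells, a log2 ratio of 0.24, and lay at the very border of the choice. Renilla positions without either knockdown also lay at 4 (0.572%, against 0.418% of the others), among them enhancers of D5Ertd579e, Actn4 and Cstad. At Actn4 the distances were 507 bp for Chaf1a.166, 580 bp for Chaf1a.2122 and 432 bp for Renilla, so the 500 bp limit alone put it there. Among enhancers with a position of any list, 25 of the 40 highest were higher in the knockdown, against 323 of 636 others. The median log2 ratio was 0.056 in these 40 and 0.0045 in the 636. Regardless of Sox2, 65.4% of the highest enhancers and 54.9% of the others were higher in the knockdown, with medians of 0.088 and 0.026. With 1 immunoprecipitate for each hairpin, a position in 1 list and not in another was not tested.

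The highest enhancers were unevenly spread over the autosomes. Their share was 7.42% of the enhancers of chromosome 15 (56 of 755), 6.48% of chromosome 2 (79 of 1220) and 6.31% of chromosome 7 (61 of 966). It was 1.84% on chromosome 13 (8 of 434) and 2.93% on chromosome 1 (24 of 820). The median level over all enhancers was 0.143 on chromosome 15 and 0.133 on chromosome 13.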

How the data were processed

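Per the file headers, the authors deposited 1 Sono-seq score for CAF-1 and 1 for Renilla at each enhancer and promoter. How 3 libraries gave 1 score, its unit and its scaling are not given in the sources used here. The authors' deposited Sox2 lists give a score, an FDR (q-value) and a ratio (enrichment over input, with its lower bound) for each position, from 1 immunoprecipitate against 1 input. The submitters' processing notes list mm9, BWA 0.7.8 and Bowtie, with no step given for either program. The sources used here do not name the caller of the positions.

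Distinct enhancers were taken by chromosome and position, and 136 rows whose symbol a spreadsheet had turned into a date were renamed through their RefSeq transcript. Shares carry exact Clopper-Pearson intervals and medians order statistic intervals (95%). A Sox2 position counted within 500 bp, and a run joined neighbours within 50 kb. The code was tested on simulated positions. Python 3.11.15, pandas 2.3.3 and scipy 1.17.1 were used. Promoter sequences are RefSeq's (GRCm38.p6). Enhancers and lists were chosen with earlier results of these data known. Enhancers named are the 10 highest, the 5 on either side of the border, the 5 highest and 5 lowest ratios, genes with 4 or more (at most 10), the 5 longest runs, the best ranked with Sox2 and those on the lists. Further examples (the Slc7a5 run, Baiap2, Kdm1a's other enhancers, genes with all enhancers among the highest) were chosen after their values were seen. Some items are not reported here.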

Additional observations from a re-analysis of the deposited data

How the results depend on the processing

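Of 67 recomputed values, 43 kept their direction and size. Many of the 43 had little room to change: 19 left out 1 chromosome each, and others were counts of enhancers that the rule largely fixes. The median log2 ratio of 0.088 became -0.098 with enhancers chosen on the Renilla value alone and 0.23 on the CAF-1 value alone, 0.068 or 0.055 with the conditions scaled to the same median or mean, and 0.065 as the ratio of the 95th percentiles. The shifts with a choice on the value of 1 condition are built into that choice. Scaling takes the same amount from every log2 ratio, 0.019 for the median and 0.033 for the mean. The others thus fell as well, to 0.0066 at the same median, and their distance from the highest enhancers did not change. Leaving out each chromosome in turn gave 0.081 to 0.091. Keeping 1 in 10 gave 1404 enhancers. At a 1.1-fold limit 38.6% were higher and 12.9% lower in the knockdown, and at 1.5-fold 0.429% and 0.143%. Sox2 shares for Chaf1a.166, Chaf1a.2122 and Renilla were 1.86%, 2.43% and 1.72% within 200 bp, 8.15%, 9.73% and 8.01% within 1000 bp, and 2.43%, 2.58% and 2.29% at an enrichment lower bound of 2. The share with a neighbour among the highest was 22.9%, 54.2% and 64.1% within 10, 100 and 200 kb, and 15.5% over pairs. The assigned start site lay 27345 bp away. The percentiles, pairs and chromosomes were added after the data were seen, and the causes were not tested. No paired analysis was possible because the deposited table has 1 value for each condition. With depth and replicate spread unknown, no error can be given for a single enhancer.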

Other observations

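The 6 autosomal enhancers with a level above 0.5 stood far from the rest. Of these, 3 were assigned to Eif4enif1 on chromosome 11, with levels of 4.10, 2.97 and 2.92, more than any of the highest enhancers (at most 0.284). One assigned to 2810429I04Rik on chromosome 13 had 0.802 in CAF-1 knockdown and 0.877 in Renilla cells. Dnajb3 on chromosome 1 had 2, with levels of 0.552 and 0.516, and the second lay 214 bp from a Chaf1a.166, 177 bp from a Chaf1a.2122 and 257 bp from a Renilla Sox2 position. Log2 ratios of the 6 lay between -0.13 and 0.076.

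The 162 enhancers of the X chromosome had a median level of 0.0771, against 0.139 on the autosomes, and a median log2 CAF-1/Renilla ratio of -0.030. Of them, 3 reached the lowest level chosen on the autosomes, at Pls3 (0.864), 3110007F17Rik (0.690) and G530011O06Rik (0.618), and all 3 were above 0.5.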
